A study of Mus musculus with 96 samples.

Results

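Apolipoproteins are the protein coats and signals of the lipid particles that carry fat and cholesterol in blood, and 10 of their genes (Apoa1, Apoa2, Apoa4, Apoa5, Apob, Apoc1, Apoc3, Apoe, Apoh and Apom) were followed across organs. They were chosen by gene name from a table of 56941 gene rows, and all 10 were found there once. RNA from liver, small intestine, kidney, spleen, brain, heart and skeletal muscle of mice aged 2 months was sequenced. The labels give 4 reprogrammable strains, 4Fj, 4FsB, 4Fk and 4FsA, and WT controls. The strains are made for switching on the reprogramming factors Pou5f1, Sox2, Klf4 and Myc in the living animal. No agent, dose or induction time is given in the labels. Liver and small intestine had 3 samples of each of the 5 genotypes, and the 96 libraries in all comprised 14 of heart, 7 of spleen and 15 of each other organ. The expression table names a library by its tissue and a running number, and no genotype could be assigned to a library. Comparisons are therefore between tissues, or along the level of Pou5f1 within a tissue, and a library number below is the running number in the table.

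The liver secretes very-low-density lipoprotein and most of the high-density lipoprotein, and enterocytes of the small intestine pack dietary fat into chylomicrons. Apob is the structural protein of chylomicrons and very-low-density lipoprotein. Apoa1 and Apoa2 are the main proteins of high-density lipoprotein, and Apom carries sphingosine-1-phosphate on it. Apoc3 restrains and Apoa5 promotes the breakdown of triglyceride by lipoprotein lipase, Apoc1 slows particle uptake, and Apoe is a ligand of the LDL receptor family. Apoa4 travels on chylomicrons, and Apoh binds anionic phospholipids. Apoa1, Apoc3, Apoa4 and Apoa5 lie side by side in the genome, as do Apoe and Apoc1.

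Levels are in CPM, the estimated count of a gene divided by the library total and multiplied by 1000000. Library totals ranged from 6624474 to 17882603, so that a count of 0 allows up to 0.168 to 0.453 CPM by counting error alone (3 counts). CPM is not corrected for gene length, so a gene is compared with itself between libraries and not with another gene. The tissue labels were checked with marker lists. Summed over 12 hepatocyte genes, liver libraries held 52191 to 143910 CPM, against 2.86 to 371 CPM in small intestine libraries. Summed over 12 enterocyte genes, the median was 198 CPM in liver (98.5 to 639), against 15669 CPM in small intestine (145 to 33022). Small intestine library 12, at 145 CPM, lay within the liver range of this sum. It held 98.0 CPM of the brush border gene Vil1, the lowest of its tissue, where the highest liver value was 4.02 CPM, and 0 CPM of albumin (Alb). In small intestine libraries 5 and 6, mitochondrially encoded genes took 62.3% and 78.8% of the counts. In liver libraries this share ran from 3.75% to 33.0%. Small intestine library 4 held 37686 CPM of 8 pancreatic acinar genes, against a small intestine median of 5.26 CPM. In bulk tissue, fewer cells of a type and less RNA per cell cannot be told apart.

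The promoters of Apoa1, Apoa4 and Apob are shown because these genes carried most of the apolipoprotein counts of the small intestine and moved together there along Pou5f1. Each is the 250 bases before the RefSeq start site on the plus strand, 5′ to 3′, in build GRCm38.p6: chr9:46228380-46228629 for Apoa1, chr9:46240594-46240843 for Apoa4 and chr12:7977427-7977676 for Apob. Capitals mark matches to CAAAGNNCA on either strand, a motif of the type bound by HNF4 factors, chosen with the sequences in view.
Apoa1: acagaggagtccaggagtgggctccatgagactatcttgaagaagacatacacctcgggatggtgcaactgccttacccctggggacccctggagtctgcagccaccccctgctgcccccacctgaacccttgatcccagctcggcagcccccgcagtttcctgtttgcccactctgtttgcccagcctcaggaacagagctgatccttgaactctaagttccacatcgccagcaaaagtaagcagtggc
Apoa4: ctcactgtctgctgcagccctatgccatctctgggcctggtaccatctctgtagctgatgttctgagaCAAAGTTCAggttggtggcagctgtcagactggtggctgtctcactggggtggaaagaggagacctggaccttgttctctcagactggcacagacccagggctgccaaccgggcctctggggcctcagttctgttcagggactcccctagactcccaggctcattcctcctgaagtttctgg
Apob: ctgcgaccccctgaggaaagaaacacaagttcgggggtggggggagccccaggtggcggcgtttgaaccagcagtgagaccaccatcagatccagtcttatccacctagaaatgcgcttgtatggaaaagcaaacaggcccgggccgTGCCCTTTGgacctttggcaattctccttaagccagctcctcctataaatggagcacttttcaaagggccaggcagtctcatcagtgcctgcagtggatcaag
The Apoa4 match starts 182 bases before the start site on the strand shown, and the Apob match starts 103 bases before it and is read on the other strand. No match lies in the Apoa1 window. Of the 10 genes, 8 had a RefSeq window of 250 bases before to 50 bases after the start, and Apoa4, Apob and Apoh held a match. In all, 6.36% of 32851 mouse windows of that length hold one. Some genes, Apoa2, Apoa5 and Apoe among them, have several windows, so this share of windows is not like the count of genes. With the motif chosen in view of these sequences, no enrichment is read from it. Apoc1 and Apoc3 are named only.

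Together the 10 genes took a median of 4.31% of all counts in liver (lowest 2.50%, highest 8.31%) and 0.821% in small intestine (0.0141% to 4.38%). The median share was 0.229% in spleen, 0.181% in brain, 0.0366% in kidney, 0.0280% in heart and 0.0129% in skeletal muscle. Of the 10, 9 had their highest tissue median in liver, and Apoa4 had its highest in small intestine. For 5 of the 10, Apoa2, Apoa5, Apoc1, Apoe and Apoh, the liver range did not overlap that of the next tissue. Of 19118 genes with a median of at least 1 CPM in some tissue, 1.31% were highest in liver without such an overlap. The genes were chosen with such levels known, so these counts are a description. Without small intestine libraries 5 and 6, the number highest in liver was 8, because Apob then had its highest median in small intestine.

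**Figure D1:**
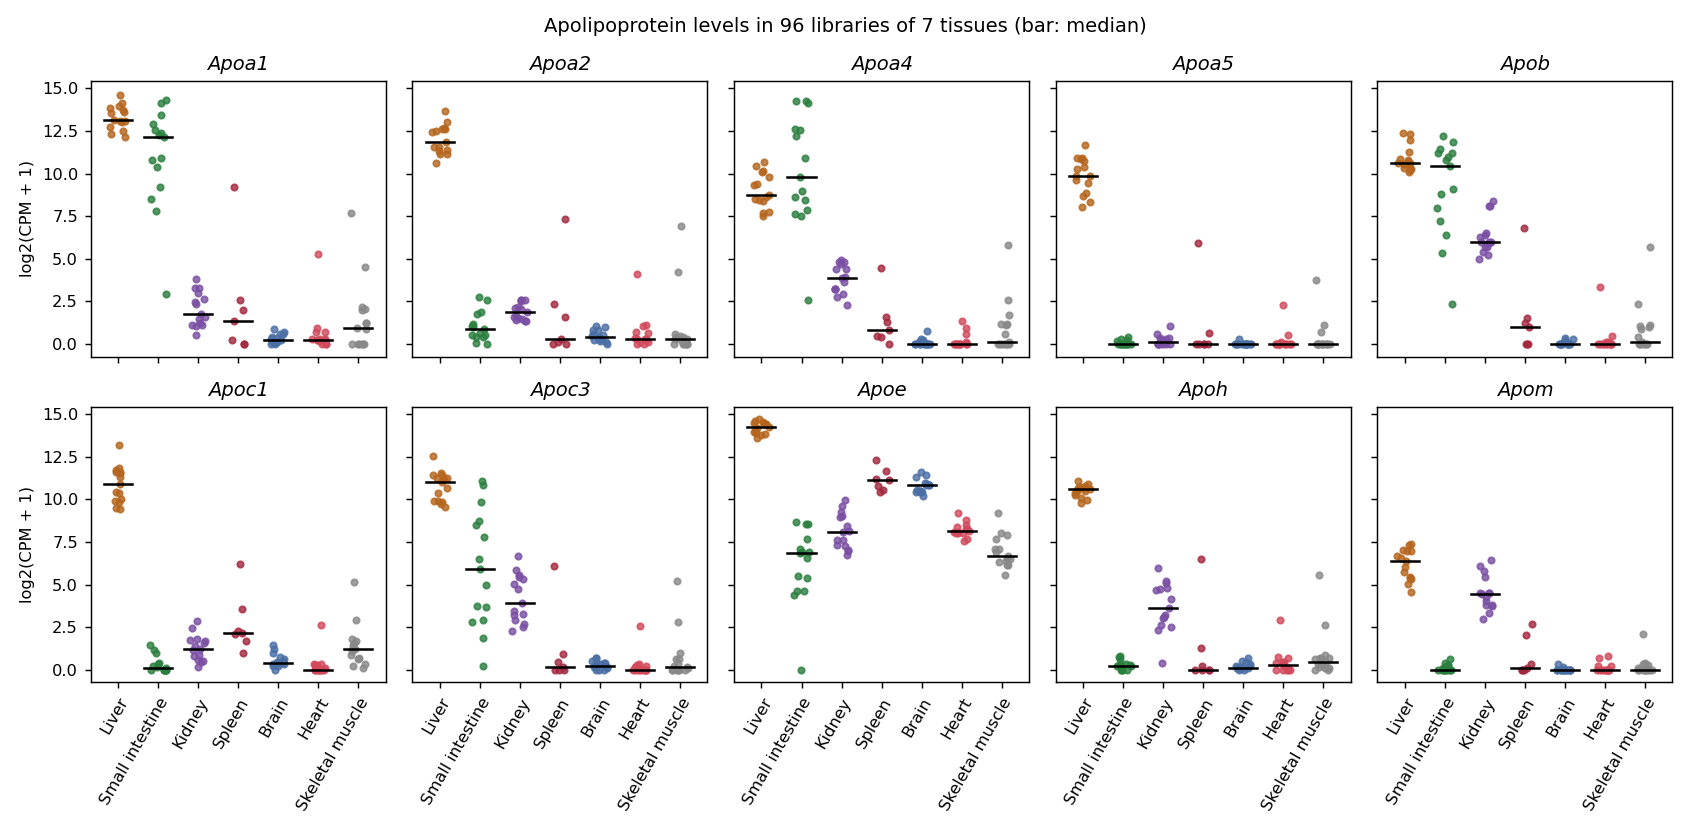
Level of each gene as log2(CPM + 1), one point per library, with tissues along the horizontal axis and a bar at each median. Apoa2, Apoa5, Apoc1 and Apoh stand high in liver and near 0 in small intestine, Apoa1, Apoa4, Apob and Apoc3 spread widely in small intestine, and Apoe is present in all 7 tissues.

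Among the structural and high-density lipoprotein genes, Apoa1 had a median of 9198 CPM in liver (4474 to 25151), against 4495 CPM in small intestine (6.57 to 20141). Its median was 2.42 CPM in kidney, 1.55 in spleen, 0.921 in skeletal muscle, 0.193 in heart and 0.173 in brain. The ranges of liver and small intestine overlapped, and those of the other 5 tissues overlapped from each to the next. Apob had a median of 1586 CPM in liver (1110 to 5386), 1397 CPM in small intestine (4.12 to 4731) and 62.4 CPM in kidney (30.4 to 329). Its medians in the other 4 tissues were below 1 CPM. Apoa2 had a median of 3665 CPM in liver (1555 to 12848), followed by 2.67 CPM in kidney and 0.841 CPM in small intestine. Apom had a median of 82.0 CPM in liver (22.3 to 168) and 20.6 CPM in kidney (6.91 to 84.4), and these ranges overlapped. Kidney is a known site of Apom synthesis, and no tissue other than these had an Apom median above 0.0967 CPM.

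Among the genes that govern triglyceride breakdown, Apoa5 was nearly confined to liver by its tissue medians: 929 CPM in liver (259 to 3257), 0.101 CPM in kidney and 0 in the other 5 tissues. Apoc3 followed liver with small intestine and kidney: medians were 2089 CPM in liver (741 to 5992), 60.2 CPM in small intestine (0.158 to 2141) and 14.2 CPM in kidney (3.84 to 103). Apoc1 had a median of 1915 CPM in liver (683 to 9246), and the next highest was 3.40 CPM in spleen. Apoa4 had a median of 429 CPM in liver (183 to 1632), 896 CPM in small intestine (4.91 to 19720) and 13.7 CPM in kidney (3.94 to 29.1), and the liver and small intestine ranges overlapped. Without small intestine libraries 5 and 6, of high mitochondrial share, its small intestine median was 1899 CPM.

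Apoe was the gene with the broadest distribution. Its median was 19304 CPM in liver (12505 to 26636), 2282 CPM in spleen (1361 to 5103) and 1806 CPM in brain (1160 to 3073), and the spleen and brain ranges overlapped. It was 280 CPM in heart, 267 CPM in kidney, 116 CPM in small intestine (0 to 415) and 103 CPM in skeletal muscle. Macrophages and astrocytes are known sources of Apoe. Spleen had the highest median sum of 10 macrophage genes of the 7 tissues, at 3356 CPM (1387 to 5410), and brain the highest of 8 astrocyte genes, at 3678 CPM (2460 to 5335). Their part in the Apoe level was not tested. With TMM scaling over all tissues the Apoe median was 1222 CPM in spleen and 1087 CPM in brain. In the deposited normalised values it was 14978 in spleen and 15384 in brain, so the order of spleen and brain changed. Apoh had a median of 1565 CPM in liver (878 to 2171) and 11.5 CPM in kidney (0.302 to 63.1).

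Single libraries of other organs held several of these genes together. Skeletal muscle library 12 had the highest value of its tissue for all 10 genes, including 206 CPM of Apoa1, 122 CPM of Apoa2 and 583 CPM of Apoe. Its 12 hepatocyte genes summed to 4407 CPM, against a muscle median of 26.3 CPM. Spleen library 2 and heart library 9 were the highest of their tissues for 9 and 9 of the genes, with 604 and 38.6 CPM of Apoa1. The sum of the hepatocyte genes in that spleen library was 5598 CPM, against a spleen median of 32.7 CPM. The part of these hepatocyte transcripts in the values was not tested.

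Liver was then compared with small intestine gene by gene, with 15 libraries each, by edgeR's quasi-likelihood test with Benjamini-Hochberg adjustment over all genes and a threshold of 0.05. Of 13472 genes tested, 52.4% were called, 24.1% higher and 28.4% lower in liver. Of the 10 apolipoprotein genes, 7 were higher in liver, Apoa4 was lower, and Apoa1 and Apob were not called. Apoa2, Apoa5, Apoc1, Apoh and Apom passed the filter on low counts through liver, so a difference for them was built in and they are described without a test. Of the other 5 genes, Apoe and Apoc3 were higher in liver, Apoa4 was lower, and Apoa1 and Apob were not called.

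**Figure D2:**
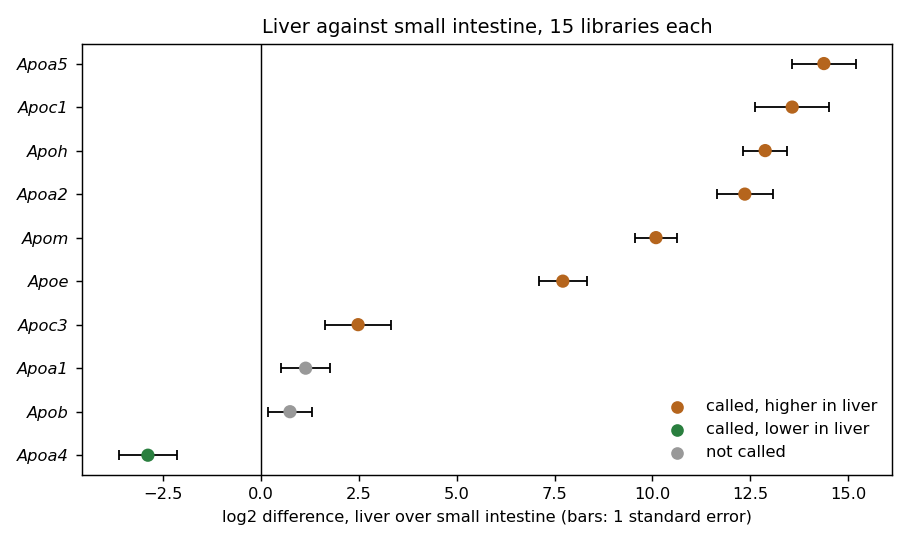
Log2 difference of each gene, liver over small intestine, with 1 standard error on either side, from 15 libraries of each tissue. Of the 10 genes, 7 lie right of 0 and are called, 5 of which passed the filter on low counts through liver, Apoa1 and Apob are not called, and Apoa4 lies left of 0 at -2.89.

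Of the 5 genes nearly absent from small intestine, few counts were found there. Over all 15 small intestine libraries together, Apoa5 had 13 counts, Apom 18, Apoh 49, Apoc1 56 and Apoa2 275. The fitted log2 difference, which for such low counts depends on the prior count, was 14.38 for Apoa5, 13.57 for Apoc1, 12.88 for Apoh, 12.36 for Apoa2 and 10.09 for Apom. Every liver library lay above every small intestine library for these 5 genes, as the filter all but fixed, and for Apoe. Over the genes tested, 4.10% had such a separation. Apoe was 7.71 ± 0.62 higher on the log2 scale (standard error, adjusted p = 2.94e-12, edgeR). Apoc3 was 2.48 ± 0.85 higher (adjusted p = 0.0144, edgeR), with overlapping ranges.

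The other 3 genes are those that both organs make in bulk. Apoa4 was lower in liver by a log2 difference of -2.89 ± 0.75 (adjusted p = 0.00155, edgeR). The fitted difference rests on means, and small intestine libraries 4, 13 and 14 held 19720, 19349 and 17875 CPM, while the tissue medians were 429 CPM in liver, against 896 CPM in small intestine. The value without each of the 30 libraries in turn ran from -3.02 to -2.54. Apoa1 differed by 1.14 ± 0.62 (adjusted p = 0.124, edgeR) and by 1.37 with DESeq2's Wald test (adjusted p = 0.0311). Apob differed by 0.74 ± 0.55 (adjusted p = 0.272, edgeR). The calls of these 3 genes turned with the running number of the columns as a replicate block: Apoa1 and Apob were called and Apoa4 was not. That number cannot stand for 1 animal throughout, as described below. A predicted antisense gene, Gm10680, overlaps Apoa4 in the GENCODE annotation of GRCm38. Gm10680 had a median of 3.70 CPM in liver (0.898 to 20.0), against 40.8 CPM in small intestine (0 to 1820). As counted, Gm10680 stood at a median of 0.478% of the Apoa4 counts in liver (0.242% to 10.9%) and 4.06% in small intestine (0% to 17.4%). Whether counting used strand is not known, so to which gene reads of the overlap belong cannot be told.

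Genes that work with the apolipoproteins were then counted, and those with a median under 1 CPM in one organ passed the filter on low counts largely through the other, so that a difference was built in for them. Over all genes tested, 24.1% were higher and 28.4% lower in liver, and the counts below are to be read beside these shares. Of 12 tested genes of triglyceride-rich particle assembly, 2 were higher and 6 lower in liver, with a median log2 difference of -0.66, beside -0.05 over all genes tested. The lipid-loading protein Mttp had a median of 132 CPM in liver, against 1048 CPM in small intestine (log2 -2.61 ± 0.54, edgeR adjusted p = 0.000141). The triglyceride synthase Dgat1 had 22.5 CPM in liver, against 746 CPM in small intestine (-4.44 ± 0.53). The fatty acid binder Fabp2 had 66.6 CPM in liver, against 1792 CPM in small intestine (-4.26 ± 0.74). Tm6sf2, which aids particle lipidation, had 28.8 CPM in liver, against 293 CPM in small intestine (-2.59 ± 0.54). Among 9 lipases and their modulators, 7 were higher in liver, 2 of them with a small intestine median under 1 CPM, and 0 lower. The hepatic lipase Lipc had a median of 95.8 CPM in liver, against 0.475 CPM in small intestine. Of 8 genes of high-density lipoprotein remodelling and cholesterol transport, 5 were higher and 1 lower, of which Lcat and Npc1l1 were near 0 in the other organ. Lcat, the enzyme that esterifies plasma cholesterol and is activated by Apoa1, had 288 CPM in liver, against 0.154 CPM in small intestine. The cholesterol importer Npc1l1 had 0 CPM in liver, against 328 CPM in small intestine. Of 8 receptor and clearance genes, 4 were higher and 2 lower in liver, and 1 of these 2 had a liver median under 1 CPM. Of 8 other apolipoprotein genes tested, 5 were higher and 0 lower. For 3 of these 5, Apof, Apoc4 and Apon, a difference was built in, with medians of 432, 529 and 261 CPM in liver, against 0, 0.107 and 0 CPM in small intestine.

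Of 15 transcription factors that act on apolipoprotein genes, 8 were higher and 3 lower in liver, of which Nr0b2 and Hnf4g were near 0 in the other organ. Over all genes tested, these shares were 24.1% and 28.4%. Hnf4g, an HNF4 paralog, had a median of 0.345 CPM in liver, against 142 CPM in small intestine. Nr0b2, a repressor in bile acid control, had 21.2 CPM in liver, against 0.0874 CPM in small intestine, and Foxa2 had 28.3 CPM in liver, against 1.08 CPM in small intestine.

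The libraries of each organ were next ordered by their level of Pou5f1, the gene of the pluripotency factor Oct4. Its row does not separate transgene from endogenous transcripts. In liver, 9 libraries lay at 0.494 CPM or below and 6 between 5.71 and 199 CPM, so the values fall in separate sets and no correlation is given there. In small intestine, 6 libraries had 0 CPM and the others ranged over 0.479 to 139 CPM. A slope is the change in log2 level per unit of log2(Pou5f1 CPM + 1). Libraries of 1 genotype may share their Pou5f1 level, so genotype and Pou5f1 cannot be told apart, and the p-values treat all libraries as independent.

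**Figure D3:**
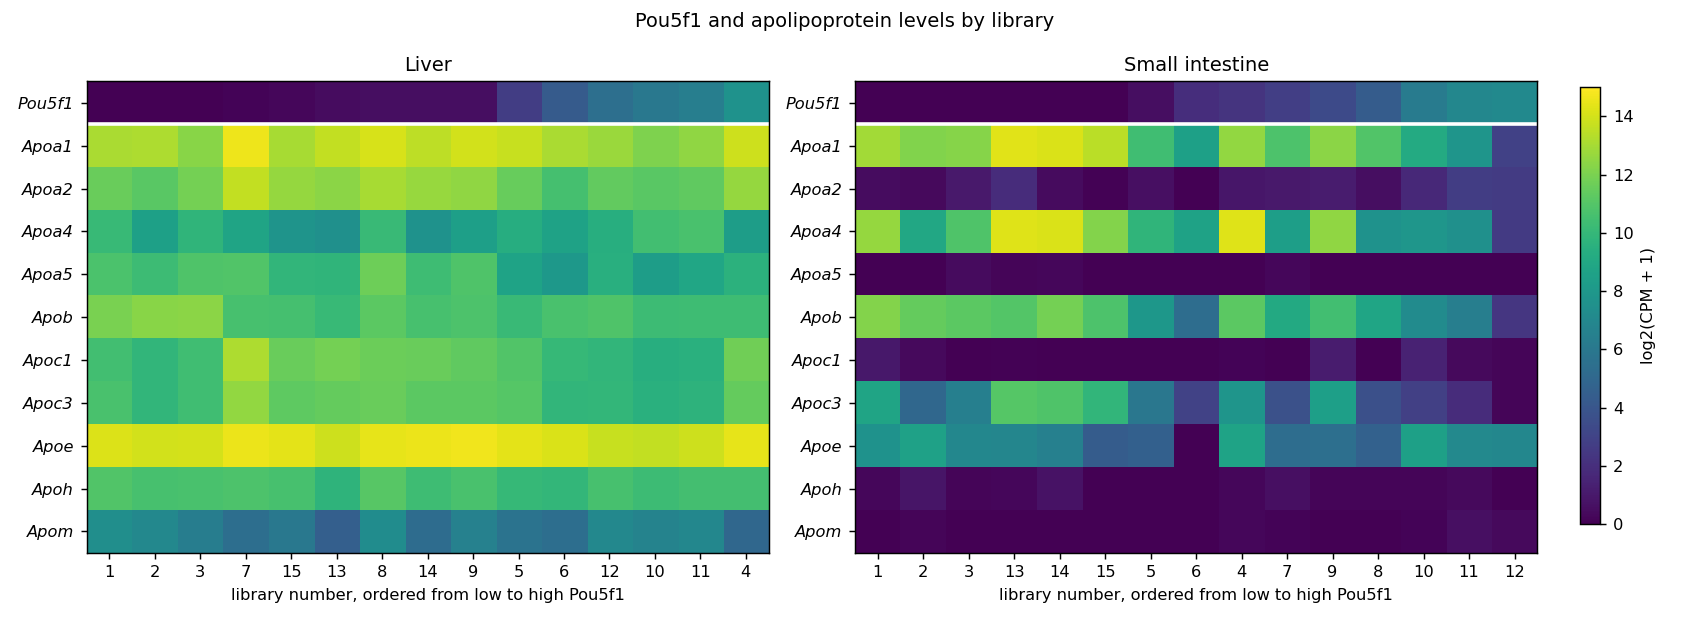
Log2(CPM + 1) of Pou5f1 (top row) and the 10 genes in each liver library (left) and small intestine library (right), ordered along the horizontal axis by rising Pou5f1. Apoa1, Apoa4, Apob and Apoc3 darken at the right end of the small intestine panel, down to 6.57, 4.91, 4.12 and 0.158 CPM in library 12, and the liver panel shows no such end.

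In liver, the slope on Pou5f1 was called for 1 of the 10 genes, Apoa5. Over all 14146 genes tested, 11.7% were called by edgeR's quasi-likelihood test at an adjusted p of 0.05, 6.88% higher and 4.85% lower with Pou5f1, so 1 of 10 is close to the share over all genes. Apoa5 had a slope of -0.30 ± 0.09 (adjusted p = 0.0440, edgeR). Its lowest values, 259, 328, 409 and 462 CPM, were in libraries 6, 10, 5 and 11, with 18.7, 63.4, 5.71 and 83.4 CPM of Pou5f1. The call was lost when any of libraries 1, 3, 6, 7, 9, 10, 11, 12 or 14 was left out (adjusted p of 0.0534 to 0.115) and with the rank of Pou5f1 (adjusted p = 0.107).

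Of the other 9 genes in liver, 8 had slopes between -0.21 and -0.05 and Apoa4 had 0.06, none of them called. Liver library 4, the highest in Pou5f1 at 199 CPM, held 14983 CPM of Apoa1, 3428 CPM of Apoc1 and 2782 CPM of Apoc3, each above the liver median. Libraries 10 and 11, at 63.4 and 83.4 CPM of Pou5f1, held 4474 and 5763 CPM of Apoa1, 683 and 723 CPM of Apoc1 and 741 and 843 CPM of Apoc3. Without library 4, slopes were called for 4 genes, Apoc1 at -0.44, Apoa5 at -0.41, Apoc3 at -0.36 and Apoa2 at -0.32, with adjusted p-values for Apoc1, Apoc3 and Apoa2 of 0.0183, 0.0226 and 0.0427 (edgeR). In that run 29.6% of all 14047 genes tested were called, 15.6% lower with Pou5f1, and the 4 of 10 are to be read beside these shares. Within the 6 libraries from 5.71 CPM upwards, 0 genes were called by edgeR, with 915 of all genes at an unadjusted p under 0.05. The slopes of Apoc1, Apoa5, Apoc3 and Apoa2 within these 6 had the other sign, at 0.13, 0.21, 0.06 and 0.23.

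Apob and Apoa4 followed other lines in liver. Apob was at 4099, 5179 and 5386 CPM in libraries 1, 2 and 3, and at most 2422 CPM in the other 12. Its slope was -0.19 (adjusted p = 0.0726, edgeR), and -0.20 by DESeq2's Wald test (adjusted p = 0.0186). Apoa4 was highest in libraries 11 and 10, at 1632 and 1402 CPM, and lowest in library 13, at 183 CPM. Mitochondrially encoded genes took 4.03% and 5.04% of the counts in libraries 11 and 10, against 33.0% in library 13, the highest liver share. The part of this share in the Apoa4 levels was not tested. Beside these slopes, 7 of 10 macrophage genes were lower with Pou5f1 and 1 was higher, and 1 of 12 hepatocyte genes, Cps1, was lower. Over all genes tested in liver, 4.85% were lower and 6.88% higher. The summed hepatocyte genes were 76098 CPM in library 4, 103735 and 118623 CPM in libraries 10 and 11, and 109039 CPM at the liver median. Their part in the slopes was not tested. Of the pathway genes, Mttp (-0.25 ± 0.06, edgeR adjusted p = 0.0178) and the cholesterol exporter Abcg1 (-0.30 ± 0.08, edgeR adjusted p = 0.0268) were lower, and no lipase, receptor, other apolipoprotein or transcription factor of the lists was called.

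In small intestine, 4 of the 6 apolipoprotein genes with enough counts to test were lower with Pou5f1, and none was higher. Of 15738 genes tested there, 26.8% were called by edgeR's quasi-likelihood test at an adjusted p of 0.05, 15.3% higher and 11.5% lower. Apoa5, Apoc1, Apoh and Apom were not tested. Apoc3 had the steepest slope of the 6, at -1.25 ± 0.28 (adjusted p = 0.00360, edgeR). Apoa1 had -0.82 ± 0.18 (adjusted p = 0.00347) and Apob -0.77 ± 0.16 (adjusted p = 0.00185), both by edgeR. Apoa4 had -0.94 ± 0.30 (adjusted p = 0.0276, edgeR).

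**Figure D4:**
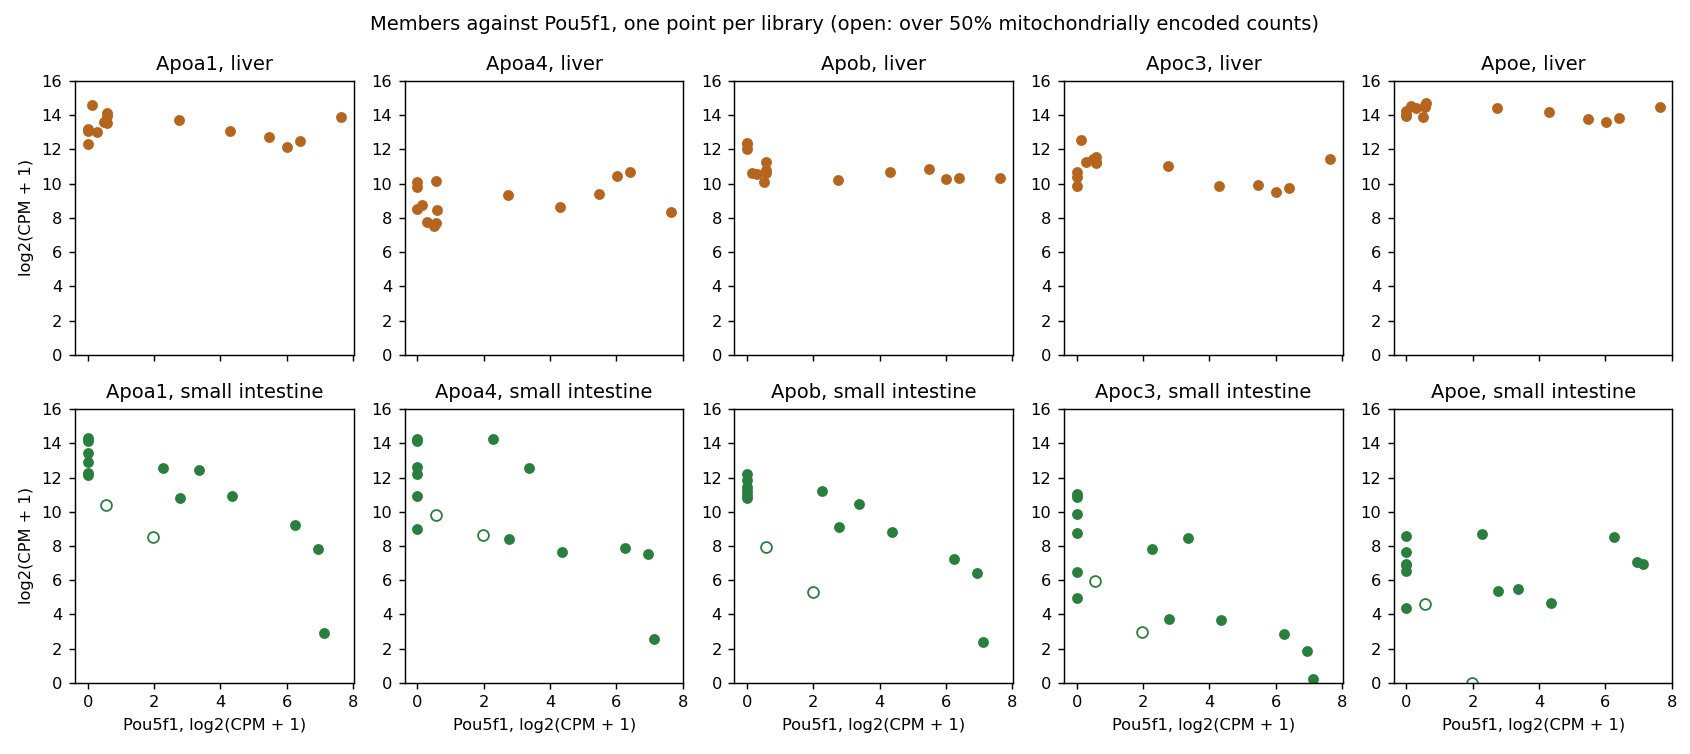
Level of 5 genes against Pou5f1, both as log2(CPM + 1), one point per library, with liver in the upper row and small intestine in the lower; open circles have over 50% mitochondrially encoded counts. In small intestine the points of Apoa1, Apoa4, Apob and Apoc3 fall to the right, and those of Apoe and all liver panels do not fall in this way.

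The libraries show how far these genes ranged. Small intestine library 12, the highest in Pou5f1 at 139 CPM, held 6.57 CPM of Apoa1, 4.91 of Apoa4, 4.12 of Apob and 0.158 of Apoc3, the lowest small intestine value of each. Library 13, at 0 CPM of Pou5f1, held 20141 CPM of Apoa1, 19349 of Apoa4, 2052 of Apob and 2141 of Apoc3. Its Apoa1 and Apoc3 were the highest of the tissue. Libraries at 0 CPM of Pou5f1 differed widely. Libraries 1, 2 and 3, also at 0 CPM, held 6357, 501 and 1899 CPM of Apoa4 and 429, 30.6 and 88.1 CPM of Apoc3. Library 4, at 3.82 CPM of Pou5f1, held the highest Apoa4, 19720 CPM. Libraries 11 and 10, at 122 and 75.5 CPM of Pou5f1, lay between libraries 12 and 13, with 221 and 586 CPM of Apoa1. Apoe did not share this order: it was at 120 CPM in library 12 and 116 CPM in library 13 (slope -0.04, edgeR adjusted p = 0.881).

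Across the 15 small intestine libraries, Pearson's r with Pou5f1 on the log2(CPM + 1) scale was -0.79 for Apoa1, -0.77 for Apoc3, -0.76 for Apob and -0.72 for Apoa4. Spearman's rho for these was -0.75, -0.79, -0.77 and -0.71. The permutation p-values of r, adjusted over 6 relations, were 0.00192, 0.00268, 0.00268 and 0.00309. The unadjusted ones were 0.000320, 0.000940, 0.00134 and 0.00206, and those of rho were 0.00189, 0.000870, 0.00116 and 0.00474. Without the 2 libraries farthest from the median of Pou5f1, r was -0.62, -0.62, -0.57 and -0.53. Libraries 10, 11 and 12 stood apart, at 75.5 CPM of Pou5f1 and above, and no run left all of them out. Whether the relation is graded below that gap was therefore not tested. Without libraries 5 and 6, of high mitochondrial share, r was -0.86, -0.82, -0.89 and -0.75. Apoa2, at 0 to 5.74 CPM, had r = 0.72 (rho = 0.58, permutation p = 0.00325 and 0.0256, adjusted 0.00390 and 0.0307), which was 0.38 without the 2 farthest, and its slope of 0.25 was not called (edgeR adjusted p = 0.137). For Apoe r was 0.10 and rho 0.04 (permutation p = 0.727 and 0.883).

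The call of the Apoa4 slope was lost in several runs, while the slope itself stayed between -1.03 and -0.78 when 1 library was left out. Its adjusted p was 0.0813 without library 12, 0.0792 without library 10, 0.102 without library 11, 0.0524 without library 13 and 0.0604 without library 14 (edgeR). It was 0.121 with the rank of Pou5f1, 0.0572 with Sox2 in its place and 0.0636 with no filter on low counts. Apoa1, Apob and Apoc3 were called in all 15 runs that left out 1 library.

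Enterocyte genes moved with these apolipoprotein genes. The counts below are to be read beside the 11.5% of all genes tested in small intestine that were lower with Pou5f1, and the 15.3% higher. Of the 12 enterocyte genes, 11 were lower with Pou5f1 and 0 higher, and their sum was 145 CPM in library 12, 782 CPM in library 11, 1292 CPM in library 10 and 32509 CPM in library 13. Library 12 is both the highest in Pou5f1 and, by this sum, within the liver range. Of 8 crypt and proliferation genes, 4 were higher with Pou5f1, namely Ccnb1, Mcm2, Top2a and Mki67, and their summed list was 916 CPM in library 12 and 179 CPM in library 13. The 6 smooth muscle genes summed to 2.65 to 9664 CPM. The part of cell makeup in the slopes was not tested. Of 13 assembly genes, 8 were lower with Pou5f1 and 0 higher, including Fabp2 at -0.84 ± 0.18, the monoacylglycerol acyltransferase Mogat2 at -0.81 ± 0.23 and Dgat1 at -0.66 ± 0.15. The sterol transporters Abcg5 (-0.96 ± 0.19), Abcg8 (-0.96 ± 0.17) and Npc1l1 (-0.91 ± 0.15) were lower too, as was Apoc2, the activator of lipoprotein lipase (-0.80 ± 0.24). Of 15 transcription factors, 6 were lower and 1 higher, led by Creb3l3 (-0.82 ± 0.18), Hnf4g (-0.70 ± 0.14), Ppara (-0.61 ± 0.16) and Ppargc1a (-0.58 ± 0.10). Ppara was low in small intestine, at a median of 1.41 CPM (0 to 9.01). Creb3l3 and Ppara regulate lipid genes in liver and gut.

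Slopes in the organs were compared directly by a tissue by Pou5f1 term in 1 fit of both tissues, a test added after seeing the data. Over 16991 genes, 8.20% differed by edgeR's quasi-likelihood test at an adjusted p of 0.05, 4.74% with the higher and 3.46% with the lower slope in liver. Apoc3, Apoa4, Apoa1 and Apob differed, each with the higher slope in liver. The slope in liver minus that in small intestine was 1.07 for Apoc3 (adjusted p = 0.00895), 1.00 for Apoa4 (adjusted p = 0.0292), 0.68 for Apoa1 (adjusted p = 0.0295) and 0.58 for Apob (adjusted p = 0.0262), all by edgeR. Without liver library 4, the adjusted p of Apoa1 was 0.0898. Apoa2 had a difference of -0.42 (adjusted p = 0.0664, edgeR).

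Genes that are neighbours in the genome were then compared library by library, on the log2(CPM + 1) scale, over 14 relations (7 in each organ). In small intestine, Apoa1, Apoc3 and Apoa4 rose and fell together. Pearson's r was 0.94 for Apoa4 with Apoc3, 0.89 for Apoc3 with Apoa1 and 0.91 for Apoa1 with Apoa4, with rho of 0.92, 0.97 and 0.89. The permutation p-values of r were 1e-05, the smallest they can give, for the first and second and 2.00e-05 for the last, and 4.67e-05, 4.67e-05 and 7.00e-05 after adjustment. Without the 2 libraries farthest on the x axis, r was 0.98, 0.92 and 0.84. Apob, which lies on another chromosome, had r = 0.96 and rho = 0.84 with Apoa1 (permutation p = 1e-05 and 0.000190, adjusted 4.67e-05 and 0.000665, and r = 0.91 without the 2 farthest).

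In liver, Apoc3 followed Apoa1 and Apoa4 did not. Apoc3 with Apoa1 had r = 0.87 and rho = 0.78 (permutation p = 4.00e-05 and 0.000880, adjusted 0.000112 and 0.00246), and 0.77 without the 2 farthest libraries. Apoa4 had r = -0.44 with Apoa1 and -0.47 with Apoc3 (permutation p = 0.0969 and 0.0778, adjusted 0.151 and 0.136), with rho of -0.40 and -0.49. With TMM-scaled CPM these r were -0.18 and -0.19. Apoa5 and Apoa4 had r = -0.09 in liver (permutation p = 0.752). Apoe with Apoc1 had r = 0.73 and rho = 0.70 in liver (permutation p = 0.00244 and 0.00502, adjusted p of r 0.00488), and Apoe with Apoa1 had r = 0.77 and rho = 0.77 (permutation p = 0.000740 and 0.00129, adjusted 0.00173 and 0.00301). Without the 2 farthest libraries these were 0.62 and 0.69. Apoa1 with Apob had r = -0.22 in liver (permutation p = 0.434), where libraries 1 to 3 stood apart in Apob. Libraries share depth and total, and the difference between organs in r was not tested.

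**Figure D5:**
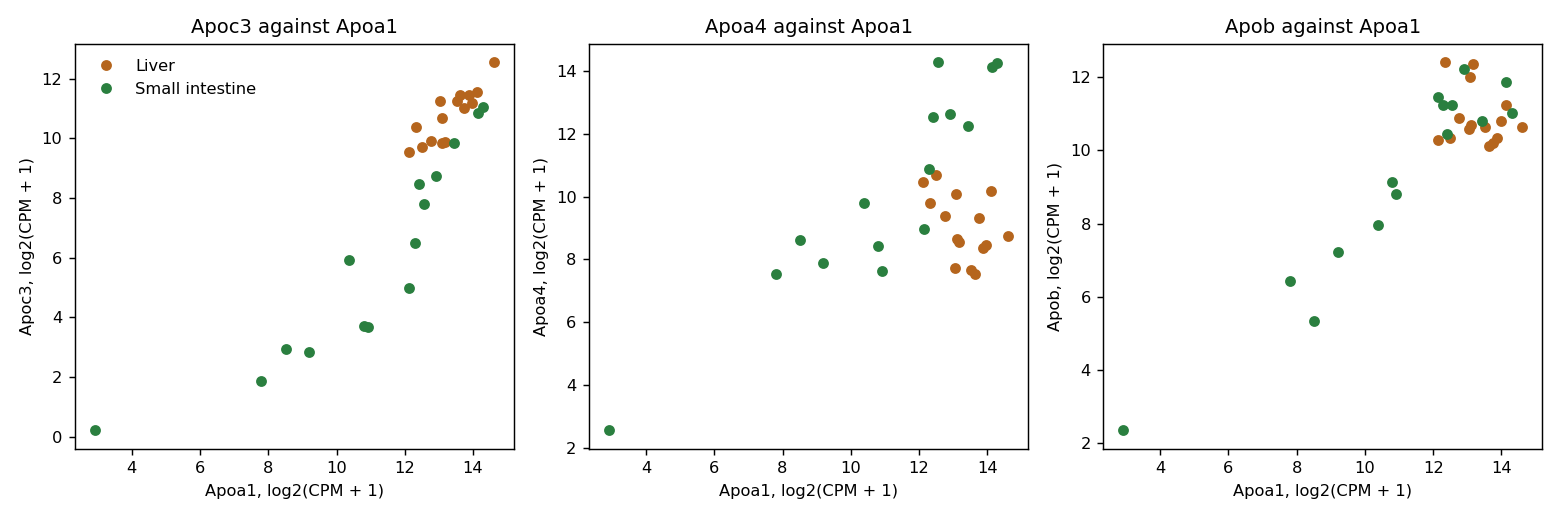
Apoc3, Apoa4 and Apob against Apoa1, all as log2(CPM + 1), one point per library, for liver and small intestine. In small intestine all 3 genes rise with Apoa1, with r of 0.89, 0.91 and 0.96, and in liver Apoc3 does (r = 0.87) while Apoa4 and Apob do not (r = -0.44 and -0.22).

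Counts of one gene per count of another were also taken within each library. Apoa4 counts per Apoa1 count had a median of 0.0454 in liver (0.0145 to 0.313) and 0.747 in small intestine (0.102 to 3.26), with the highest in liver library 10 and small intestine library 4. Apoc3 counts per Apoa1 count had a median of 0.168 in liver (0.103 to 0.289) and 0.0241 in small intestine (0.00608 to 0.106). Apob counts per Apoa1 count had a median of 0.181 in liver and 0.256 in small intestine, and reached 1.04 in liver library 3. In liver, Apoc1 counts per Apoe count ranged over 0.0484 to 0.384, with the highest in library 7, which also held the highest Apoa1, Apoa2, Apoc1 and Apoc3 of the liver libraries.

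By Spearman's rho over the 15 libraries of an organ, the gene most like each apolipoprotein gene was also found, as a description. In liver, Apoc4, the gene between Apoc1 and Apoc2 in the Apoe cluster, was the nearest to both Apoc1 (rho = 0.97) and Apoc3 (rho = 0.96). Apoa5 was nearest to Pemt (0.95), which methylates phospholipid, Arg1 (0.94) of the urea cycle and the asialoglycoprotein receptor Asgr1 (0.94). The nearest was As3mt (0.95) for Apoa4, Mgst1 (0.92) for Apoa2, Pon1 (0.92), an enzyme of high-density lipoprotein, for Apoh, Phyh (0.91) for Apoe, Cryz (0.90) for Apob, Ssr3 (0.90) for Apom and Ccdc152 (0.87) for Apoa1. In small intestine, Apoa1 was nearest to Tmem86a (0.99) and the retinol dehydrogenase Rdh7 (0.98), Apob to Btnl1 (0.99) and the brush border cadherin Cdhr2 (0.98), Apoc3 to the carotenoid oxygenase Bco2 (0.97) and Dgat1 (0.97), Apoa4 to the epoxide hydrolase Ephx2 (0.98), and Apoe to Pros1 (0.97). Genes had to reach a median of 5 CPM in the organ, which 9096 did in liver and 9654 in small intestine.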

How the data were processed

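Per the labels' protocols, cDNA libraries were made from total RNA of frozen tissue. Build GRCm39 and DESeq2 are named, per the submitters' processing notes. For aligner, counter, annotation and strand, the entry is: not given in the sources used here. The authors deposited estimated counts per gene, of which 26.8% of the values above 0 were not whole (tolerance 1e-06), and they were rounded for the tests. A deposited table of normalised values, treated as a signal, was used only to check the tissue order. Of the gene rows, 310 had no gene name, with at most 0.113% of a library's counts, and were kept in the totals.

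Tissue was read from each column name, which holds a running number but no genotype, and that number matches no replicate number of the labels. The column names do not state which libraries come from the same animal, so the main tests did not pair libraries across organs. Their p-values measure the spread between these libraries, and a run with the running number as a replicate block is given below. Tests used edgeR 4.0.16 in R 4.3.3 on rounded estimated counts, with filterByExpr, TMM scaling, quasi-likelihood tests and Benjamini-Hochberg adjustment over all genes tested. Standard errors are the size of the log2 estimate divided by the square root of its F value. Pou5f1 entered as log2(CPM + 1), a pseudocount of 1 CPM. Correlations used 100000 permutations, two-sided (scipy 1.17.1). Other steps used Python 3.11.15, numpy 2.4.6 and pandas 2.3.3. The fits and correlations were tested on simulated data.

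Alternatives were DESeq2 1.42.0, DESeq2 size factors, library totals, no filter, no mitochondrially encoded genes, another pseudocount, the rank of Pou5f1, Sox2 in its place, covariates, and libraries left out. The genes and all 14 lists (142 genes, all matched by name) were chosen with earlier results of these data known. Named genes are the 10 apolipoprotein genes, the 4 reprogramming factors, the 3 genes most like each by Spearman's rho, and up to 4 called genes of each list. The slope comparison between tissues, the runs without single libraries and the motif were chosen after seeing the data. The result of 1 gene of the lists is not reported here.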

Additional observations from a re-analysis of the deposited data

Results flagged for a closer look

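Spleen library 2 stood apart from the other 6 spleen libraries for 8 of the 10 genes, by the gap to its nearest neighbour divided by the range (Dixon's test). It held 604 CPM of Apoa1, where the next spleen value was 4.93 CPM. It held 158 CPM of Apoa2, 113 of Apob, 89.9 of Apoh, 73.2 of Apoc1, 66.6 of Apoc3, 61.1 of Apoa5 and 20.6 of Apoa4. Chance gives such a gap in about 1 in 20 groups of normally distributed values. Most other spleen values of these 8 genes were near 0 CPM, so that rate need not hold, and these genes share the library. Only spleen had few enough libraries for the test as run, so libraries of other tissues could not be flagged. Its summed hepatocyte genes were 5598 CPM, and their part was not tested.

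The slope on Pou5f1 differed between organs for 4 genes by the tissue by Pou5f1 term (edgeR quasi-likelihood). Liver minus small intestine, the difference was 1.07 for Apoc3, 1.00 for Apoa4, 0.68 for Apoa1 and 0.58 for Apob. Over all genes 8.20% differed, and without liver library 4 the adjusted p of Apoa1 was 0.0898 (edgeR).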

How the results depend on the processing

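The 8 calls of the 10 genes between liver and small intestine stayed at 8 in each of the 30 runs without 1 library. For 5 of these 8, Apoa2, Apoa5, Apoc1, Apoh and Apom, a difference was built in by the filter, so their calls do not bear on stability. Apoe, Apoc3 and Apoa4 were each called in all 30 runs. Over all genes, the count called was 7064 (3243 higher and 3821 lower in liver), and 12229 with no filter, 12003 with all 7 tissues in one fit, and 1885 higher and 3856 lower with library totals. The median of all genes was -0.05, and 0.14 with DESeq2 size factors, -0.37 with library totals and 0.23 with DESeq2.

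In liver, the number of genes of the 10 called on Pou5f1 was 1, and 2 with DESeq2, 4 without library 4 (the highest in Pou5f1) and 0 within the 6 libraries from 5.71 CPM upwards. It ran from 0 to 4 when 1 library was left out. Over all genes the count was 1659, and 2849 with DESeq2, 2542 with Sox2, 4162 without library 4 and 0 within the 6 libraries. It ran from 420 (without library 11) to 4162, with 547 and 836 without libraries 10 and 12. Within the 6 libraries the slope turned to 0.23 for Apoa2, 0.21 for Apoa5, 0.13 for Apoc1, 0.06 for Apoc3, 0.12 for Apoh and 0.13 for Apom, none called. The Apoa4 slope of 0.06 ran from -0.00 to 0.12 when 1 library was left out.

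In small intestine, 3 to 4 genes were called in the runs without 1 library. Over all genes the count was 4218, and 2570 without library 12, the highest in Pou5f1. It ran from 2570 to 5281 when 1 library was left out, with 2722 without library 11. The slope of Apoe was 0.01 with Sox2. The count of genes whose slope differed between organs was 1394, and 2257 without small intestine libraries 5 and 6 and 2472 with DESeq2.

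With TMM-scaled CPM, r was 0.07 for Apoa5 with Apoa4 and 0.08 for Apoa1 with Apob in liver, and -0.05 for Apoa1 with Apoe in small intestine, where it was -0.11 without libraries 5 and 6. The cause of these changes was not tested. The running numbers of the columns are not the replicate numbers of the labels, and they cannot stand for 1 animal throughout. The Y-linked gene Ddx3y had 0 CPM in liver library 1, against 44.4 CPM in small intestine library 1. For the other numbers of these organs, whether same-numbered libraries come from the same animal is not known. Deviations of same-numbered liver and small intestine libraries from the tissue means correlated at 0.01 to 0.46, with a median of 0.24. The correlation was over 0.1 for 12 of 15 numbers, and 3 of 15 liver libraries correlated best with their own number. Liver libraries 10, 11 and 12 each correlated best with small intestine library 11, and liver libraries 13, 14 and 15 with small intestine library 15. Correlations of differently numbered libraries were not summarised, so these values do not show that a shared number goes with shared deviations. The reason for the correlations was not tested. With the running number as a replicate block, 9 of the 10 genes and 9819 of 18441 genes tested were called between organs. Apoa2, Apoa5, Apoc1, Apoh and Apom are among the 9, and a difference was built in for them. Apoa1 (adjusted p = 0.0179) and Apob (0.0397) were called and Apoa4 was not (0.423, edgeR). The slope difference was then called for 4 of the 10 and for 1144 of all genes. Low counts of Apoa5, Apoc1, Apoh and Apom limit what small intestine can show for them.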
